A study of Homo sapiens with 6 samples.

Results

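ACTA2, the gene of smooth muscle alpha-actin, was followed in K562 cells together with 9 other genes of the smooth muscle contractile apparatus, namely ACTG2, TAGLN, MYL9, CNN1, MYH11, TPM1, TPM2, CALD1 and SMTN. ACTA2 was selected on its counts, which rose in the cells described here as Delta-TRRAP, so its rise is given as a description and without a test. The 9 others were taken for their role in smooth muscle. All 10 genes were found by symbol among the 60609 genes of the count files, of which 34998 had a count. K562 is an established human leukaemia line with erythroid features. Both groups derived from 1 K562 clone in which each endogenous EP400 copy carried a degradation tag (EP400-dTAG), and every library was made after 24 h with 500 nM dTAGV-1, which removes the tagged protein. WT cells carried exogenous WT EP400 at the AAVS1 safe harbour locus, and Delta-TRRAP cells carried there an EP400 without the SANT and HD domains, which hold the TRRAP module of the TIP60 complex. Poly(A) RNA was sequenced in 3 libraries of each group, and each complemented line was 1 clone, so that clone and genotype cannot be told apart.

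Smooth muscle contracts when myosin II pulls on filaments of the muscle actins. The myosin is switched on by phosphorylation of its regulatory light chain, and tropomyosin, caldesmon and calponin lie along the actin filament and tune its access to myosin. Many of these genes are classic targets of serum response factor (SRF) with its co-activators of the myocardin family, acting through CArG boxes near their starts.

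Libraries held 35076835 to 42616061 counts in genes. Normalized counts are counts brought to 1 common library size by TMM scaling, and errors of levels are SD over 3 libraries per group. Errors of log2 fold changes (Delta-TRRAP over WT) are SE. Each SE was derived as the absolute log2 fold change over the square root of the F statistic of edgeR. Where WT counts are few, this SE can understate the error. For CALD1 it was 0.71, against 1.23 in DESeq2. EP400, the tagged and complemented gene, had 5100 ± 282 normalized counts in WT and 5520 ± 1172 in Delta-TRRAP, and its log2 fold change was 0.11 ± 0.11 (SE, edgeR adjusted p = 0.354), where counts add the tagged locus and the transgene. The labels call the cells lymphoblasts. The 11 erythroid genes listed for K562 summed to 234237 to 235214 normalized counts per library in WT and 133752 to 138378 in Delta-TRRAP, whereas the 8 lymphoid markers summed to 498 to 510 and 424 to 465, most of it CD3D, with MS4A1 at 0 counts in every library. Delta-TRRAP libraries had a larger share of mitochondrial counts, at 5.07% to 6.24% against 3.18% to 3.71%. Its part in the results below was not tested.

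Sequence before the starts of 4 transcripts is shown first, because ACTA2 has starts 38 kb apart that differ in these features, and because ACTG2 stayed near 0 and CNN1 fell. Each window holds the 250 bases upstream of a RefSeq start (GRCh38.p14, given 5′ to 3′ on the strand of the gene). Capitals mark a relaxed CArG form, which allows 1 G or C among the central A and T bases of the CArG box. The relaxed form was chosen after the ACTA2 window had been seen.
ACTA2 inner start, chr10:88952774-88953023, minus strand: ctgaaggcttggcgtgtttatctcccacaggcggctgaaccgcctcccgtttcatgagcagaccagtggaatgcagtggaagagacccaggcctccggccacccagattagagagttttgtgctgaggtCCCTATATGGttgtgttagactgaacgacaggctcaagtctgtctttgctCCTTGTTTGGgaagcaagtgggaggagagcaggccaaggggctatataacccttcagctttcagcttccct
ACTA2 outer start, chr10:88991338-88991587, minus strand: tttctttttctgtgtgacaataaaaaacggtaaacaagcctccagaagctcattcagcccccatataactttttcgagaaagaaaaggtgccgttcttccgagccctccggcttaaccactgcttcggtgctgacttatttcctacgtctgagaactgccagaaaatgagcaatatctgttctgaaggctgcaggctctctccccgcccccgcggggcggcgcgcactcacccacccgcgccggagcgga
ACTG2, chr2:73892758-73893007, plus strand: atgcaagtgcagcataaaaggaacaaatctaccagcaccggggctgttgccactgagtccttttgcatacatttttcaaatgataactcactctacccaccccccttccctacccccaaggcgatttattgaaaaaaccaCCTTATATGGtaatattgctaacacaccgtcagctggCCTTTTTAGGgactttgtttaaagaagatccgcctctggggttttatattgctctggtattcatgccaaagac
CNN1, chr19:11538601-11538850, plus strand: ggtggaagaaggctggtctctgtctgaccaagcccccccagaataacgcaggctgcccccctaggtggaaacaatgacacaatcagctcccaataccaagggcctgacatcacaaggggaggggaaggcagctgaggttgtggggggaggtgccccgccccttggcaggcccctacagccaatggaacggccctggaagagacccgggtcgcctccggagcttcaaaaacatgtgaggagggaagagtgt

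The window at the inner ACTA2 start, used by the classic smooth muscle transcript, held 2 relaxed CArG forms, whose first bases lay 121 and 71 bases before the start. The window at the outer start held none, and had 17 CpG dinucleotides against 6 at the inner start. ACTG2, the gene of smooth muscle gamma-actin, held 2 strict CArG boxes at 110 and 73 bases before its start, and CNN1 held neither form. Among 15 windows of the 7 members with an entry (TAGLN, MYL9 and MYH11 had no entry), 2 held the strict CArG box, in ACTG2 and SMTN, and 4 held the relaxed form. Over all 35116 RefSeq windows of the same length the shares were 1.16% and 7.04%. The motif is symmetric, so both strands were covered by 1 search. A match is a description of the letters and no evidence of binding, and gene counts do not show which start was used.

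ACTA2 (ENSG00000107796.13, GRCh38 chromosome 10, 88935074 to 88991339, minus strand) went from next to nothing to a mid-range level. Counts were 0, 1 and 0 in WT replicates 1, 2 and 3 and 537, 538 and 510 in Delta-TRRAP replicates 1, 2 and 3. The groups lay far apart, and the 3 Delta-TRRAP libraries lay within a few percent of each other, at 526 ± 12.4 normalized counts. The ratio of scaled counts was 1569, with an exact 95% interval of 281 to 62026 that covers counting error only. Scaled to length, ACTA2 reached 2.40 ± 0.0568 CPM (counts scaled to the library total) per kb of merged exon in Delta-TRRAP, above 52.3% of the 19041 tested genes with an annotated length, whose median was 2.08. A larger share of cells with the transcript and more transcript per cell cannot be told apart in bulk RNA.

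ACTA2 became the third most abundant actin transcript without coming near the cytoplasmic actins. Of the counts of the 6 actin genes, ACTA2 took 0.682% to 0.707% in Delta-TRRAP libraries. ACTB, cytoplasmic beta-actin, had 303.5 CPM per kb in Delta-TRRAP and 353 in WT, and ACTG1, cytoplasmic gamma-actin, 144.8 and 179.8. The log2 fold change was -0.22 ± 0.06 for ACTB and -0.31 ± 0.05 for ACTG1 (SE), with edgeR adjusted p-values of 0.00261 and 5.40e-05. Neither passed when libraries were scaled by size alone, a choice that moved the median over all tested genes from 0.0057 to 0.16 on the log2 scale. The remaining muscle actins were low in both groups. ACTG2 had 0, 2 and 1 counts in WT and 1, 1 and 1 in Delta-TRRAP, ACTA1 of skeletal muscle had 4 WT and 5 Delta-TRRAP counts over 3 libraries each, and ACTC1 of heart muscle had 23 and 24. For ACTG2 the ratio of 0.990 had an exact 95% interval of 0.133 to 7.39, so a change of several fold in either direction was not detectable at this depth. Only uniquely mapping reads were counted, which makes the counts of actins, whose coding sequences are close to identical, uncertain in their absolute level.

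**Figure D1:**
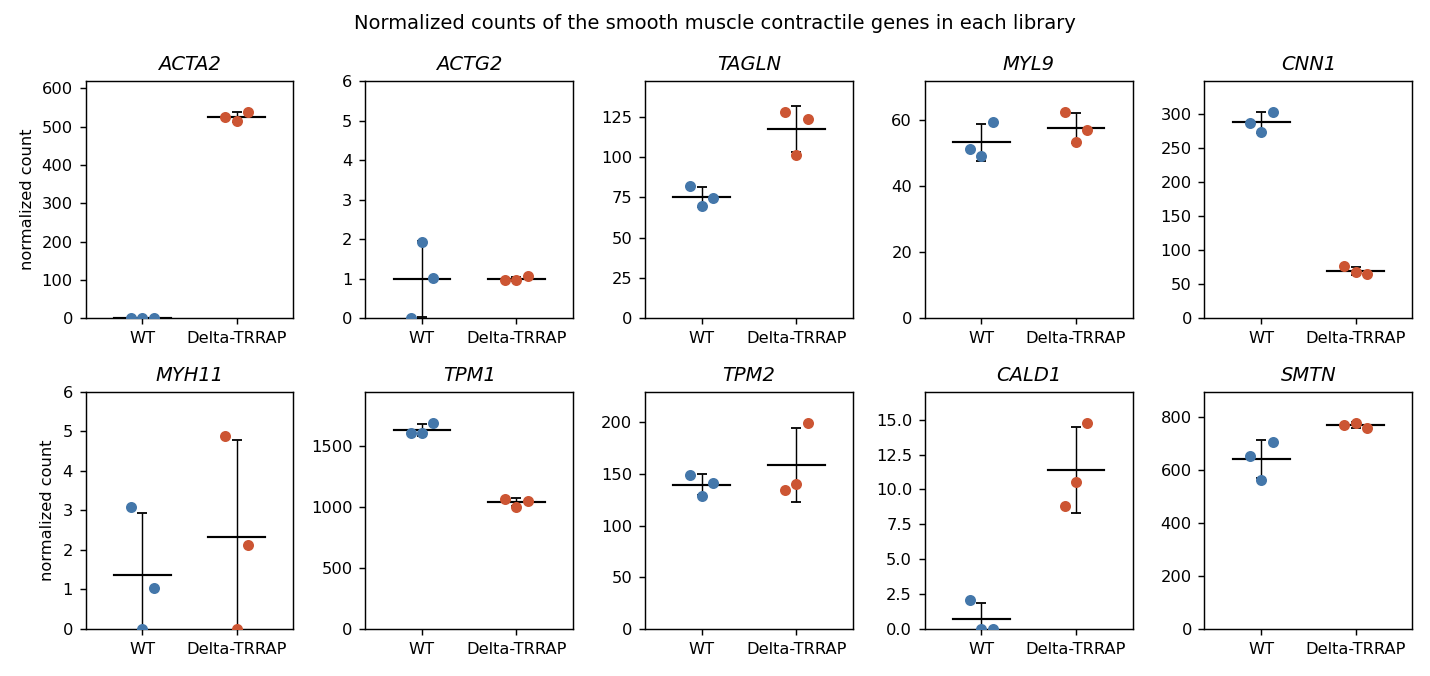
Normalized counts (counts scaled to library size by TMM, linear axis from 0) of the 10 contractile genes, 1 panel per gene, with a point per library, the mean as a bar and the SD as a whisker (n = 3). ACTA2 sits between 514 and 539 in Delta-TRRAP and at 0 to 0.965 in WT, CNN1 and TPM1 are lower in Delta-TRRAP, TAGLN, CALD1 and SMTN are higher, and the groups overlap for ACTG2, MYL9, MYH11 and TPM2.

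The genes that regulate the actin filament moved in both directions, with CNN1 and TPM1 lower and TAGLN, SMTN and CALD1 higher. The calls used here needed a 2-fold change with an adjusted p up to 0.01, and 19114 genes were abundant enough (mean of 5 normalized counts or more) to be tested. Of the 10 genes, 8 passed the count minimum, ACTA2 and CALD1 only through their Delta-TRRAP libraries. The rise of ACTA2 is fixed by its selection and is not counted as a call. Of the 7 others, CALD1 was called higher and CNN1 lower, while 22.5% of all tested genes were called, 16.2% higher and 6.34% lower, and nothing is read from the count of members. Outside the members, some genes named below with a test or a call also had a WT mean under 5 and reached the minimum only through Delta-TRRAP. These were FAS, AL157394.3, RNLS, IFIT5, LINC00865, ACP5, FHL1, SYNPO2, COL1A2, PDGFRB, POSTN and TEK. They could be tested only because they were higher there. Normalized counts did not overlap between the groups for ACTA2, CNN1, TPM1, TAGLN, SMTN and CALD1, as for 71.1% of all tested genes.

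CNN1 (ENSG00000130176.8, GRCh38 chromosome 19, 11538767 to 11550323, plus strand) encodes calponin 1, an actin-binding protein of differentiated smooth muscle. It had 280, 283 and 295 counts in WT replicates 1 to 3 and 78, 71 and 61 in Delta-TRRAP replicates 1 to 3. Every Delta-TRRAP library lay below every WT library. CNN1 fell from 288 ± 14.9 to 69.5 ± 6.09 normalized counts, a log2 fold change of -2.04 ± 0.11 (SE, edgeR adjusted p = 3.02e-10). Its direction was thus opposite to that of ACTA2. CNN2, the calponin of non-muscle cells, changed by -0.32 ± 0.05 (SE, adjusted p of 4.13e-05 in edgeR) from 3966 normalized counts in WT, and CNN3 had 2 WT and 7 Delta-TRRAP counts. Of the 6 tested genes nearest to CNN1, 3 on each side, none was called lower and 1, ACP5, was called higher.

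Of the tropomyosin members, TPM1 was lower and TPM2 did not pass the test. TPM1 (ENSG00000140416.21, GRCh38 chromosome 15, 63042620 to 63071915, plus strand) was the most abundant member in WT, with 1561, 1661 and 1644 counts in WT replicates 1 to 3 and 1091, 1045 and 991 in Delta-TRRAP replicates 1 to 3. The groups did not overlap, and the log2 fold change was -0.65 ± 0.05 (SE, edgeR adjusted p = 3.54e-08), a decrease that did not reach 2-fold. TPM4, a mostly non-muscle tropomyosin, changed by nearly the same amount, -0.65 ± 0.05 (SE, adjusted p of 6.90e-09 in edgeR), and TPM3 by -0.33 ± 0.05 (SE, adjusted p of 1.27e-05 in edgeR). TPM2, beta-tropomyosin (ENSG00000198467.15, GRCh38 chromosome 9, 35681992 to 35690056, minus strand), had 145, 133 and 138 counts in WT replicates 1 to 3 and 138, 147 and 189 in Delta-TRRAP replicates 1 to 3. Its groups overlapped, and the log2 fold change of 0.18 ± 0.14 (SE) had an edgeR adjusted p of 0.289 and turned to -0.017 without Delta-TRRAP replicate 3. TPM1 has muscle and non-muscle isoforms, and counts per gene do not separate them.

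TAGLN (ENSG00000149591.17, GRCh38 chromosome 11, 117199370 to 117207464, plus strand) encodes transgelin, or SM22-alpha, an early marker of smooth muscle. It had 80, 72 and 73 counts in WT replicates 1 to 3 and 131, 106 and 117 in Delta-TRRAP replicates 1 to 3. All Delta-TRRAP libraries lay above all WT libraries, with a log2 fold change of 0.64 ± 0.14 (SE, edgeR adjusted p = 0.000837), which did not reach 2-fold. Its relative TAGLN2, the transgelin of blood and other non-muscle cells, moved the other way by -0.54 ± 0.05 (SE, adjusted p of 1.18e-07 in edgeR) and stayed far above TAGLN, at 14385 normalized counts in Delta-TRRAP. SMTN, the gene of smoothelin (ENSG00000183963.18, GRCh38 chromosome 22, 31064105 to 31104757, plus strand), had 638, 583 and 689 counts in WT replicates 1 to 3 and 788, 815 and 718 in Delta-TRRAP replicates 1 to 3. Its normalized counts did not overlap between groups, and the log2 fold change was 0.26 ± 0.08 (SE, edgeR adjusted p = 0.0061). The call by adjusted p was lost without WT replicate 2 (0.17, edgeR adjusted p = 0.0559), and adjusted p rose to 0.0183 without WT replicate 1 and to 0.0218 without Delta-TRRAP replicate 1.

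CALD1 (ENSG00000122786.20, GRCh38 chromosome 7, 134744252 to 134970729, plus strand), the gene of caldesmon, appeared at a low level. It had 2, 0 and 0 counts in WT replicates 1 to 3 and 9, 11 and 14 in Delta-TRRAP replicates 1 to 3. The groups did not overlap, and the ratio of scaled counts was 16.8, with an exact 95% interval of 4.32 to 144.6. The edgeR adjusted p was 0.000198, but the gene passed the count minimum only through its Delta-TRRAP libraries, and without replicate 3 of that group it fell under the minimum. At 0.0298 ± 0.0081 CPM per kb in Delta-TRRAP CALD1 remained a small fraction of ACTA2. A non-coding gene on the opposite strand within CALD1, AC083870.1, had 20 WT and 197 Delta-TRRAP counts, with a log2 fold change of 3.27 ± 0.27 (SE, edgeR adjusted p = 4.37e-08). Counting was by strand, and the exons of the 2 genes do not overlap.

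The smooth muscle myosin genes showed no call. MYH11 (ENSG00000133392.18, GRCh38 chromosome 16, 15703135 to 15857028, minus strand), the smooth muscle myosin heavy chain and among the most specific markers of that cell type, had 3, 0 and 1 counts in WT and 5, 0 and 2 in Delta-TRRAP. It was too low for testing, and the ratio of 1.73 had an exact 95% interval of 0.441 to 8.07. MYL9 (ENSG00000101335.10, GRCh38 chromosome 20, 36541497 to 36551447, plus strand), the regulatory light chain that pairs with it, had 50, 51 and 58 counts in WT replicates 1 to 3 and 64, 56 and 54 in Delta-TRRAP replicates 1 to 3. Those groups overlapped, with a log2 fold change of 0.12 ± 0.16 (SE, edgeR adjusted p = 0.55). The 6 tested genes nearest to MYL9 all had negative log2 fold changes, from -1.29 to -0.19, and TGIF2 and RAB5IF were called lower. The non-muscle light chain genes MYL12A and MYL12B, at 9438 and 8762 normalized counts in Delta-TRRAP, were far above MYL9.

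**Figure D2:**
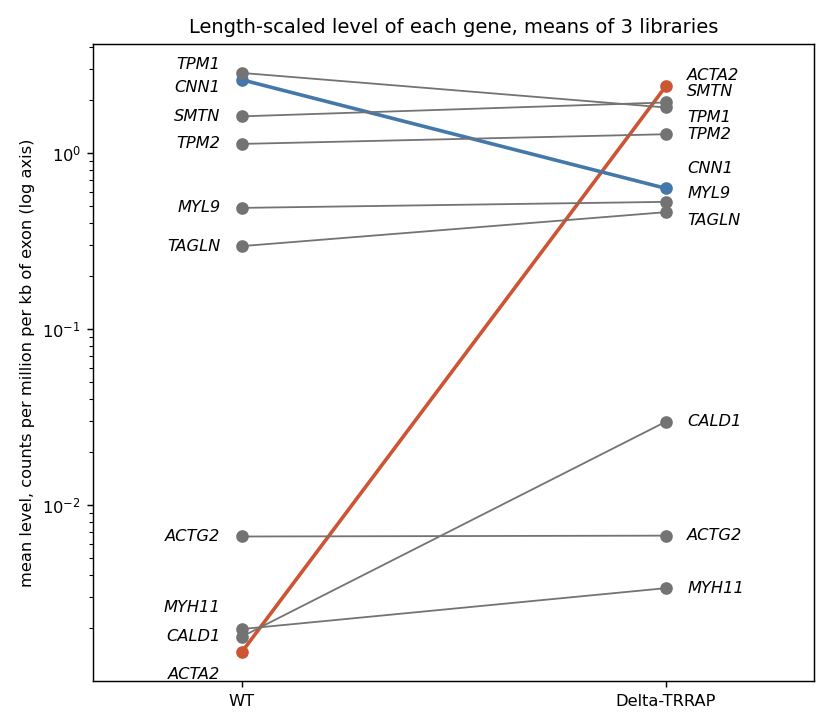
Mean level of each gene in CPM per kb of merged exon (log axis) in WT and Delta-TRRAP, 3 libraries each, with ACTA2 in orange and CNN1 in blue. ACTA2 moves from the bottom of the order, at 0.00147, to its top, at 2.40, while CNN1 goes from 2.60 to 0.629.

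The order of the members by length-scaled level was rearranged around ACTA2 and CNN1. In WT it ran from TPM1 (2.85 CPM per kb) through CNN1 (2.60), SMTN (1.61), TPM2 (1.13), MYL9 (0.488) and TAGLN (0.296) to ACTG2 (0.00664), MYH11 (0.00198), CALD1 (0.00179) and ACTA2 (0.00147). Neighbours in that order were apart in every library down to TAGLN, and the lowest 4 overlapped with each other. In Delta-TRRAP ACTA2 came first (2.40), followed by SMTN (1.94), TPM1 (1.81), TPM2 (1.28), CNN1 (0.629), MYL9 (0.528), TAGLN (0.461), CALD1 (0.0298), ACTG2 (0.00672) and MYH11 (0.00338). Here MYL9 and TAGLN overlapped, as did ACTG2 and MYH11. Lengths are of all annotated exons merged, so a gene expressed from few of its exons is understated.

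At the ACTA2 locus, the genes that lie across its outer start were also higher. The ACTA2 gene model spans an inner start and an outer start. FAS, which encodes a death receptor, runs on the opposite strand, and its RefSeq starts lie between 539 bases to one side and 94 bases to the other side of the outer ACTA2 start, about 38 kb from the inner one. In the GENCODE annotation, however, FAS begins at 88953813, near the inner ACTA2 start at 88952773. Counts per gene do not show which FAS start was used. FAS had 3, 5 and 6 counts in WT replicates 1 to 3 and 201, 192 and 193 in Delta-TRRAP replicates 1 to 3. Its log2 fold change was 5.34 ± 0.21 (SE, edgeR adjusted p = 7.52e-12). AL157394.3, a non-coding gene on the ACTA2 strand whose exons overlap those of ACTA2, had 4 WT and 40 Delta-TRRAP counts, with a log2 fold change of 3.19 ± 0.51 (SE, edgeR adjusted p = 4.57e-05). Reads in an exon shared by these genes on 1 strand are ambiguous in union counting and were left out. STAMBPL1, which overlaps ACTA2 on the opposite strand from the other side, had 14 WT and 12 Delta-TRRAP counts, and ACTA2-AS1 had 0 and 2.

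Further out, RNLS was at 0 in WT and reached 12.04 ± 3.85 normalized counts in Delta-TRRAP. LIPA, on the FAS side, had a log2 fold change of 0.53 ± 0.35 (SE, edgeR adjusted p = 0.187). Leaving out ACTA2, 14 genes that start within 1000 kb of it were tested. Of these, 6 were called higher, 1 lower and 7 not called, beside 16.2% higher and 6.34% lower among all tested genes. RNLS, FAS, AL157394.3, IFIT5 and LINC00865, all among the 6, had a WT mean under 5 normalized counts. They could be tested only because they were higher in Delta-TRRAP, so nothing is read from the count.

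**Figure D3:**
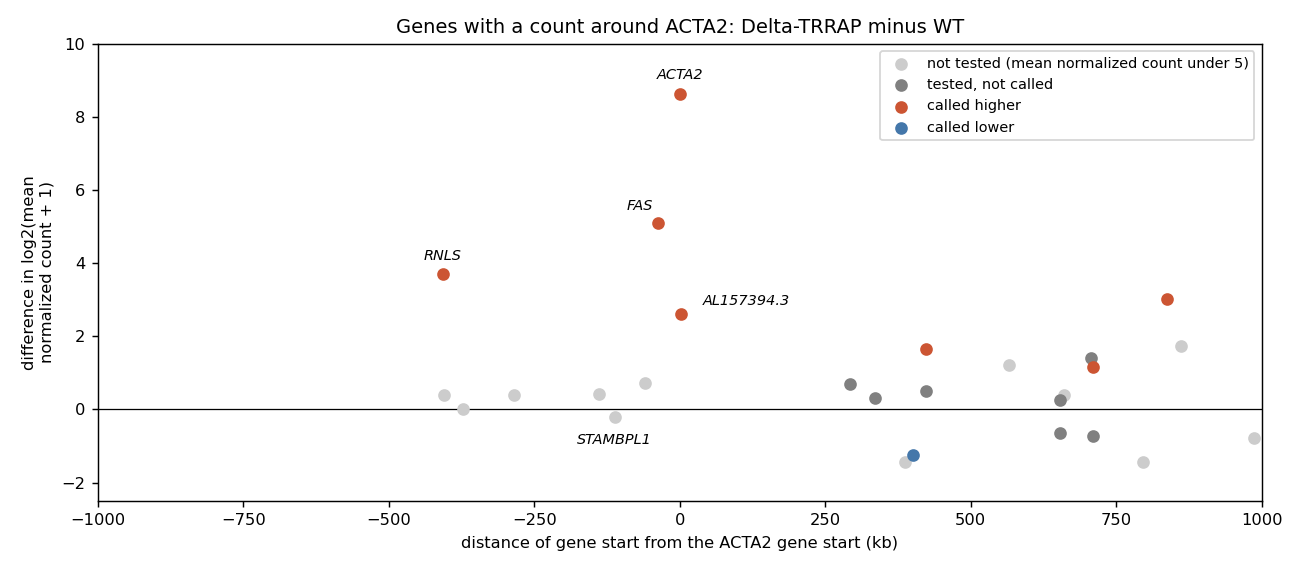
Difference between groups in log2(mean normalized count + 1), Delta-TRRAP minus WT, for the 27 genes with a count that start within 1000 kb of the ACTA2 gene start, plotted by distance in kb, where negative distances are lower coordinates. Gene starts are those of the annotation, which places FAS at -37.5 kb because of an extended transcript that begins near the inner ACTA2 start. ACTA2, FAS, AL157394.3 and RNLS are among the 7 genes drawn as higher, ACTA2 by its selection, 1 is called lower, and STAMBPL1, which overlaps ACTA2, was too low to test.

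The wider contractile programme was described by 6 lists, which hold 72 different genes, 57 of them tested. Of these, 10 were called higher and 5 lower, or 17.5% and 8.77%, close to the 16.2% and 6.34% of all tested genes. By adjusted p alone, 16 passed upward and 27 downward, where 58.6% of all tested genes passed in either direction. Their median log2 fold change was -0.22, beside 0.0057 for all tested genes. Scaled by library size alone, these medians were -0.063 and 0.16, and 17 passed the adjusted p upward and 21 downward.

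Among genes that act on the light chain, MYLK was called higher and PPP1R14A and PPP1R12C lower. Of 13 tested genes, 8 passed the adjusted p downward and 1 upward, where 58.6% of all tested genes passed in either direction. The median log2 fold change was -0.57, and it was -0.41 with libraries scaled by size alone, with 7 passing downward. MYLK, the kinase that activates smooth muscle and non-muscle myosin, rose from 44.6 ± 8.95 to 248 ± 35.7 normalized counts, by 2.48 ± 0.16 (SE) on the log2 scale (edgeR adjusted p = 1.58e-09). PPP1R14A, also known as CPI-17, an inhibitor of myosin phosphatase that is prominent in smooth muscle, fell from 1112 ± 57.9 to 311 ± 17.6 normalized counts, a log2 fold change of -1.84 ± 0.07 (SE, edgeR adjusted p = 4.36e-12). PPP1R12C, a targeting subunit of the phosphatase whose gene hosts the AAVS1 site of both transgenes, changed by -1.74 ± 0.23 (SE, adjusted p of 7.53e-06 in edgeR). PPP1R12A, the main targeting subunit of smooth muscle, changed by -0.57 ± 0.05 (SE, adjusted p of 8.54e-08 in edgeR). ROCK2, a kinase that inhibits the phosphatase, changed by -0.69 ± 0.07 (SE, adjusted p of 4.11e-07 in edgeR), while ROCK1, RHOA, PPP1R12B and DAPK3 did not pass and changed sign with the scaling, and PPP1CB lost its adjusted p with libraries scaled by size alone.

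Of the 10 tested relatives of the members, MYH14 was called higher, and 6 passed the adjusted p downward. Among all tested genes 22.5% were called and 58.6% passed the adjusted p, in either direction. With libraries scaled by size alone, 5 of the relatives passed downward. MYH14, a non-muscle myosin heavy chain, rose from 9.75 ± 3.99 to 193.6 ± 12.01 normalized counts, by 4.30 ± 0.20 (SE) on the log2 scale (edgeR adjusted p = 4.70e-11). The heavy chains that dominate in these cells, MYH9 and MYH10, had 7083 and 7887 normalized counts in Delta-TRRAP and log2 fold changes of -0.19 ± 0.08 and -0.25 ± 0.09 (SE), with edgeR adjusted p-values of 0.0405 and 0.0213.

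Of 11 tested genes among SRF and its partners, KLF4 was called higher and MEF2C lower, beside 16.2% higher and 6.34% lower among all tested genes. The adjusted p was passed upward by 5 and downward by 4, or 3 with libraries scaled by size alone. Among all tested genes 58.6% passed it in either direction. SRF itself changed by -0.45 ± 0.05 (SE, adjusted p of 9.38e-07 in edgeR). MYOCD, the myocardin gene that is restricted to heart and smooth muscle, had 0 WT and 5 Delta-TRRAP counts. The widely expressed co-activators MRTFA and MRTFB were higher by 0.45 ± 0.08 and 0.39 ± 0.08 (SE) on the log2 scale, with edgeR adjusted p-values of 9.42e-05 and 0.000668, both short of 2-fold. The ternary complex factor ELK1, which competes with the myocardin family for SRF, was higher by 0.40 ± 0.05 (SE, adjusted p of 2.23e-06 in edgeR). KLF4, a factor known to repress smooth muscle genes, rose by 1.38 ± 0.14 (SE), from 48.7 ± 5.43 to 126.9 ± 9.33 normalized counts (edgeR adjusted p = 5.00e-07). MEF2C, a muscle and blood factor, fell by 2.20 ± 0.06 (SE), from 6899 ± 236.5 to 1503 ± 73.4 normalized counts (edgeR adjusted p = 4.66e-14).

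SRF targets outside the contractile apparatus were called in both directions. Of 8 tested, FHL1 and EGR1 were called higher and VCL lower, beside 16.2% higher and 6.34% lower among all tested genes. FHL1, a LIM protein of muscle, rose by 4.26 ± 0.26 (SE) from 4.36 ± 0.677 normalized counts in WT (edgeR adjusted p = 1.39e-09). EGR1, an immediate early gene, rose by 1.09 ± 0.09 (SE, adjusted p of 2.80e-08 in edgeR). VCL, the gene of vinculin at cell-matrix contacts, fell from 28357 ± 1460 to 10578 ± 1068 normalized counts, a log2 fold change of -1.42 ± 0.07 (SE, edgeR adjusted p = 8.20e-11). CCN2 had no counts in any library.

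Among 16 further smooth muscle genes, 12 were tested, 5 were called higher and 1 lower, beside 16.2% and 6.34% of all tested genes. LMOD1, leiomodin 1, which nucleates actin filaments in smooth muscle, rose by 1.62 ± 0.13 (SE, adjusted p of 2.16e-08 in edgeR). SYNM, an intermediate filament protein of muscle, rose by 3.36 ± 0.21, SYNPO2 by 2.80 ± 0.34 and PLN, phospholamban, by 2.002 ± 0.309 (SE), with edgeR adjusted p-values of 1.30e-09, 2.69e-06 and 3.33e-05. DES, desmin, fell from 504 ± 21.7 to 196 ± 7.20 normalized counts, a log2 fold change of -1.36 ± 0.08 (SE, edgeR adjusted p = 6.55e-10). Among those not tested, CASQ2 had no counts, KCNMB1 had 2 in WT and 0 in Delta-TRRAP, ITGA8 had 13 and 0, and PDLIM3 had 0 and 20.

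**Figure D4:**
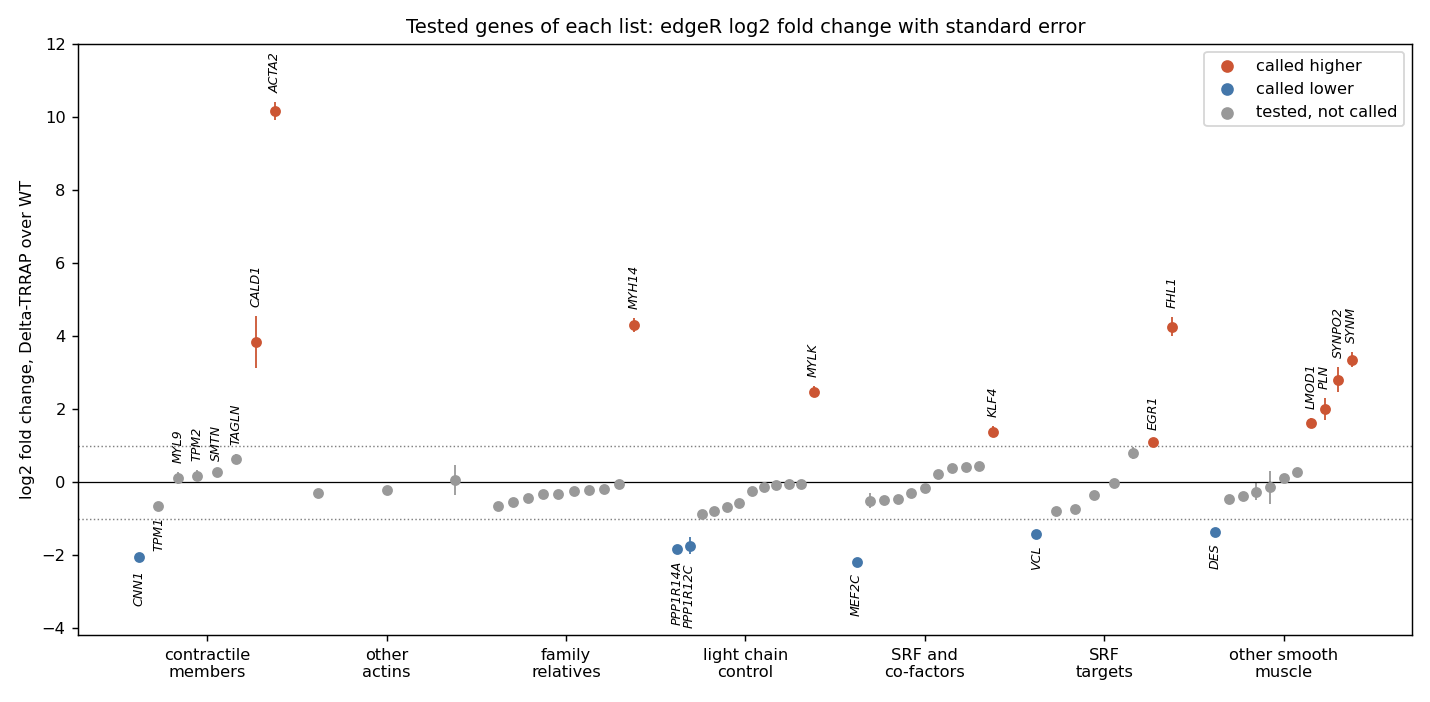
Log2 fold change of Delta-TRRAP over WT with its standard error (edgeR) for the tested genes of 7 lists, without those not reported here, in order of size within a list, with orange for called higher, blue for called lower and grey for tested and not called. Dotted lines mark a fold change of 2, and the values of ACTA2 and CALD1, which rest on 1 and 2 counts in WT, depend on the prior count of the fit. The rise of ACTA2 is fixed by its selection, and its standard error, 0.24 as drawn, was 1.18 with DESeq2. Of the members, ACTA2 and CALD1 lie above, CNN1 lies below and the other 5 lie between the dotted lines.

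Among markers of other cell types, both those of fibroblasts and mesenchyme and those of pericytes and endothelium moved in both directions. Of 14 fibroblast and mesenchymal markers, 9 were tested. Of these, 5 were called higher (6 with libraries scaled by size alone, with VIM) and 1 lower, beside 16.2% and 6.34% of all tested genes. COL1A2, PDGFRB and POSTN, all among the 5, passed the count minimum only through Delta-TRRAP, so nothing is read from the count. Their summed normalized counts ran from 13904 to 14791 in WT and from 39602 to 41337 in Delta-TRRAP, and most of the sum came from VIM, with means of 12936 and 25226, and FN1, with 667 and 11952. COL1A2 rose from 1.63 ± 1.999 to 868 ± 36.1 normalized counts (edgeR adjusted p = 1.81e-14), while COL1A1, the partner chain of type I collagen, had 28.9 ± 10.5 and 29.8 ± 9.84. FN1, fibronectin, rose by 4.16 ± 0.10 and SPARC by 3.96 ± 0.06 (SE), with edgeR adjusted p-values of 3.11e-14 and 4.93e-16, and S100A4 fell by 2.71 ± 0.11 (SE, adjusted p of 1.04e-11 in edgeR). LUM and PDGFRA had no counts in any library, THY1 had 0 in WT and 1 in Delta-TRRAP, FAP had 2 and 0, and DCN had 35 and 26. Of 11 pericyte and endothelial markers, 8 were tested. RGS5, ABCC9 and TEK were called higher and none lower, beside 16.2% and 6.34% of all tested genes. TEK passed the count minimum only through Delta-TRRAP, so nothing is read from this count either. MCAM, KCNJ8 and PECAM1 passed the adjusted p downward, with log2 fold changes of -0.76, -0.83 and -0.77 that did not reach 2-fold. The summed level, most of it MCAM at means of 4617 and 2732, ran from 5729 to 6000 in WT and from 3984 to 4340 in Delta-TRRAP. CDH5 had 1 WT and 0 Delta-TRRAP counts, VWF had 1 and 10, and KDR had 0 and 17. The part of other cells in the ACTA2 rise was not tested.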

How the data were processed

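Poly(A) RNA of 3 WT and 3 Delta-TRRAP libraries was used, grouped by sample title. The authors aligned reads to hg38 with STAR, keeping unique alignments, and deposited raw counts per gene from HTSeq 2.0.2 (union mode, reverse strand, GENCODE annotation). The labels do not say how many cultures lie behind the libraries, and the methods call them biological replicates of 1 clone per line, so p-values measure the spread between these libraries only. A table of size-factor scaled counts, with 3 columns of another condition, and the authors' table of fold changes and p-values were not used.

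The quasi-likelihood F test of edgeR 4.0.16 (R 4.3.3) compared the groups, with TMM scaling and no covariate, over 19114 genes averaging 5 normalized counts or more, and p-values were adjusted over all of them (Benjamini-Hochberg). Calls needed a 2-fold change with an adjusted p up to 0.01, as in the study, which used DESeq2. The script was tested on simulated data. For normalized counts, each count was divided by its library's TMM-corrected size over the geometric mean of these sizes. Intervals of ratios are exact conditional binomial ones at 95%. Positions and merged exon lengths come from GENCODE release 44 on GRCh38, the assembly the authors call hg38, and 19041 tested genes matched by ID. Promoter sequence comes from RefSeq on GRCh38.p14.

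Members and lists were chosen with earlier results of these data known. Members, called genes of each list (at most 3 a direction in long lists), all genes of the lists of actins, relatives, light chain control and SRF partners, overlapping genes, the 3 tested genes on each side of ACTA2 and the 5 genes most like ACTA2 could be named. ACP5, TGIF2, RAB5IF, IFIT5 and LINC00865, and single markers with 0 or few counts or without a change, were named after their values were seen. The libraries were taken as separate, as the chi-square of replicate pairs was 5.43 to 17.5 times that of counting noise. Alternatives were DESeq2 1.42.0, limma-voom 3.58.1, the omission of each library, a block for replicate number, and other scalings, filters and thresholds. DESeq2 used the same count minimum. A few genes are not reported here.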

Additional observations from a re-analysis of the deposited data

How the results depend on the processing

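The count of members called higher was 2, ACTA2 included, whose rise is fixed by its selection, and the count called lower was 1. Nothing is read from how stable these counts are. With a minimum mean normalized count of 50, 1 member was higher, since CALD1 was not tested. By adjusted p alone, 4 members were higher and 2 lower, and at a fold change of 1.5, 3 were higher and 2 lower, since these rules are looser. Without 1 library, 1 to 2 members were higher and 1 was lower. For the 6 lists of contractile context genes, the reported 10 higher and 5 lower became 16 and 27 by adjusted p alone and 12 lower at a fold change of 1.5, 7 were higher with a minimum mean of 50, and 10 to 11 were higher without 1 library. Scaling by library size alone left 17 context genes upward and 21 downward by adjusted p alone. The log2 fold change of TPM2 turned to -0.017 without Delta-TRRAP replicate 3 and ran up to 0.28 without other libraries. The fitted log2 fold change of ACTA2 was 10.2, and it was 9.50 with limma-voom and 12.02 without WT replicate 2, the library with its only WT count. For CNN1 it lay between -2.12 and -1.89 and for TPM1 between -0.68 and -0.49 over 14 alternatives each.

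Deviations from the group mean were unrelated between libraries of equal number (r of -0.035 to -0.011 over genes), and the numbers were taken as names only. With the replicate number as a block, 2 members were higher and 1 lower.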

Other observations

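The genes whose pattern over the 6 libraries was closest to that of ACTA2 were GJA1, TAC3, COL1A2, DTNA and NDN. Likeness was the Euclidean distance between log2 CPM (prior count of 2), centred per gene, among 12699 genes whose mean was 50 normalized counts or more. The distance to ACTA2 was 0.585 for GJA1, the gap junction protein connexin 43, 0.711 for TAC3, the precursor of neurokinin B, and 0.751 for COL1A2. It was 0.931 for DTNA, alpha-dystrobrevin of the dystrophin complex, and 1.10 for NDN, the imprinted gene of necdin. All 5 were near 0 in WT, with 0, 10, 5, 12 and 10 counts over 3 libraries, and had 1652, 3166, 2622, 2522 and 2190 in Delta-TRRAP. Because ACTA2 was picked for its rise, likeness to it is mainly a rise of the same size, and the 6 libraries fall into 2 groups.

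Of 24 listed genes of striated muscle, 7 were tested, of which 1 was called higher and 3 lower, beside 16.2% and 6.34% of all tested genes. TNNT1 and TNNI3, a skeletal and a cardiac troponin, fell by 1.44 ± 0.06 and 1.51 ± 0.08 (SE) on the log2 scale, from 8683 and 657 normalized counts in WT, with edgeR adjusted p-values of 9.51e-12 and 2.00e-10. MYL4, an embryonic and atrial myosin light chain, fell by 1.08 ± 0.05 (SE, adjusted p of 1.27e-10 in edgeR), a change that was -0.92 with libraries scaled by size alone. MYH3, an embryonic myosin heavy chain, rose by 1.08 ± 0.30 (SE, adjusted p of 0.00548 in edgeR) at 24.2 ± 3.26 normalized counts in Delta-TRRAP. NEB, nebulin, passed the adjusted p upward at 0.84 ± 0.17 (SE, edgeR adjusted p = 0.000518) without reaching 2-fold. Among the genes not tested, MYH6 had 2 WT and 12 Delta-TRRAP counts and TNNC2 had 0 and 8, and MYOD1, MYL1, MYL2 and TNNI1 had no counts in any library.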
